A study of Mus musculus with 48 samples.

Results

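The mammalian heat shock genes described here are 10 genes chosen by symbol, Hspa1a, Hspa1b, Hspa8, Hsph1, Dnajb1, Hspb1, Hsp90aa1, Hspd1, Hspe1 and Bag3. They were 10 of the 52636 genes measured by RNA sequencing in punches of the amygdala. All 10 were matched to 1 Ensembl identifier each, and all 10 passed the filter on low values in every comparison. The set was named cytosolic, which does not hold for Hspd1 and Hspe1: these encode the chaperonins Hsp60 and Hsp10 of the mitochondrial matrix.

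Heat shock proteins are chaperones that bind unfolded protein and keep it from aggregating. Hsp70 proteins work in a cycle in which DnaJ proteins deliver the substrate and nucleotide exchange factors such as Hsp110 and the BAG proteins release it, and Hsp90 takes over clients that need further folding. The transcription factor Hsf1 raises many of these genes when proteins unfold, by binding repeats of GAA and its complement TTC in their promoters, and neurons are known for a weaker induction of Hsp70 than glia.

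Female mice of the strain C57BL/6NTac-Brd1, young adults by the study's methods, carried either both copies of Brd1 (WT) or a heterozygous targeted deletion (Brd1+/-), and were litter-matched. Brd1 encodes a bromodomain protein of histone acetyltransferase complexes, and no driver that limits the deletion to a cell type is named. Each genotype was injected subcutaneously with saline (vehicle), with the tricyclic drug imipramine at 10 mg/kg (IMN) or with the serotonin reuptake inhibitor fluoxetine at 5 mg/kg (FLX). This gave 6 groups of 8 libraries, and p-values measure the spread between these libraries. All mice, vehicle groups included, had been through a tail suspension test, an open field test and a forced swim, with the brain taken about an hour after the swim. No library came from a mouse that had not swum, and body temperature is not among the labels, so a response shared by all 6 groups cannot be seen here.

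Values were deposited as TPM, a unit in which reads are divided by transcript length and scaled to the same sum in each library, so levels of different genes may be set side by side. TPM keeps no record of sequencing depth, which is therefore unknown, and values carry no counting interval. Differences were tested with limma on log2(TPM + 0.1), 2-sided, with Benjamini-Hochberg adjustment over all genes tested, and a gene was called at an adjusted p under 0.05. Fold changes are therefore on the log2(TPM + 0.1) scale, which understates the change of low genes.

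The labels were checked first. Brd1 lay between 16.6 and 30.6 TPM in the 24 Brd1+/- libraries and between 24.9 and 41.0 TPM in the 24 WT libraries. Averaged over treatments it was lower by a difference of -0.54 ± 0.06 on the log2 scale (SE, limma, adjusted p = 4.02e-07). Within treatments the adjusted p was 0.0512 for vehicle, 0.102 for IMN and 0.0362 for FLX. All 8 genes of the amygdala marker list were above 0.1 TPM on average. Among them Slc17a7, Gad1 and Gad2 are also in the list of general neuron markers, so their presence does not identify the amygdala. However, 7 libraries stood apart with a sum of 7 striatal projection neuron markers between 6750 and 10534 TPM, against 131 to 4773 TPM in the other 41. They were WT vehicle replicate 3, WT IMN replicates 2 and 8, Brd1+/- vehicle replicate 1, Brd1+/- IMN replicates 2 and 6 and Brd1+/- FLX replicate 2, and none was WT FLX. In these 7 the amygdala marker Tac2 had a median of 1.37 TPM, with 0 as the lowest value, against a median of 67.1 TPM in the other 41. Of the other genes of that amygdala list, Slc17a7, Prkcd, Crh, Cyp26b1, Rspo2 and Gad2 also had lower medians in the 7. Gad1 had a higher one, 436 against 380 TPM. Within the 7, Slc17a7 still reached 670 TPM and Rspo2 11.7 TPM. A further 4 libraries (WT vehicle replicate 1, WT FLX replicate 2, Brd1+/- vehicle replicate 3 and Brd1+/- FLX replicate 8) had choroid plexus markers summing to between 8788 and 29647 TPM, against at most 3443 TPM elsewhere. Since whole punches were sequenced, fewer cells of a type and less RNA per cell cannot be told apart in any value below.

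The promoters of the members are shown first because Hsf1 is known to bind such repeats there. RefSeq windows on GRCm38.p6, from 250 bases before to 50 bases after a start site, were found for 8 of the 10 genes. Hspa8 and Hsp90aa1 were not in the table used. Each window was searched for GAANNTTC and TTCNNGAA, which read the same on both strands and may share letters where units follow each other. At least 1 match was present for 7 of the 8 genes, and Dnajb1 had none in either of its windows. Of all 32851 windows of this length, 15.1% held either motif. Hspd1 had a further window without a match. The 7 are not independent, because the Hspa1a and Hspa1b windows differ at 4 of 300 bases, and the Hspd1 and Hspe1 windows share 285 bases of 1 bidirectional promoter. A run of at least 3 alternating units of GAA and TTC, each 2 bases from the next, was present in Hsph1 and in the promoter shared by Hspd1 and Hspe1, and in 0.603% of all windows. A match is a run of letters and not a bound site. The stretches holding the matches are given 5′ to 3′ on the strand of the gene, with the matched letters in capitals.
Hspa1a, chr17:34972238-34972275, minus strand: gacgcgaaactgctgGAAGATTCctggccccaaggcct
Hspb1, chr5:135887787-135887844, plus strand: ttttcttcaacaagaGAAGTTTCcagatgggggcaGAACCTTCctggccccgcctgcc
Bag3, chr7:128523610-128523632, plus strand: ctctggatgggaccaGAAGTTTC
Hspe1, chr1:55088044-55088091, plus strand: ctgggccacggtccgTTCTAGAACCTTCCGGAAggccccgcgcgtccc
Hspa1a and Hspb1 are shown as a stress-inducible gene with 1 match and a small heat shock protein gene with 2, both upstream of the start site. In Bag3 the match lies 43 to 50 bases after it, and the Hspe1 stretch, shared with Hspd1, holds 3 overlapping matches that make up 4 such units. The letters shown for Hspa1a stand also before Hspa1b, at chr17:34959320-34959357 on the minus strand.

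The levels of the 10 genes ran from 1.99 TPM in the lowest library of Hspa1b to 772 TPM in the highest library of Hspa8. Hspa8, the constitutive cytosolic Hsp70, was highest, with a lowest value of 434.8, a median of 649 and a highest value of 772 TPM over the 48 libraries. Hsp90aa1, the inducible cytosolic Hsp90, lay between 260 and 724 TPM with a median of 453 TPM. Hsph1, the Hsp110 exchange factor, lay between 152 and 271 TPM with a median of 194 TPM.
The mitochondrial pair followed. Hspd1 lay between 98.2 and 171 TPM with a median of 137 TPM, and Hspe1 between 77.8 and 130 TPM with a median of 98.3 TPM. Dnajb1, the DnaJ protein that works with Hsp70 in the cytosol, had a median of 40.2 TPM.
The 4 remaining genes were low. The small heat shock protein gene Hspb1 had a median of 9.32 TPM, the stress-inducible Hsp70 genes Hspa1a and Hspa1b had medians of 8.46 and 8.35 TPM, and Bag3, a co-chaperone that links Hsp70 to small heat shock proteins, had a median of 6.67 TPM. None of the 10 was listed at 0 in any library. In the plot of levels by group the ranges overlap in each of the 9 pairs of groups compared, for each gene.

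**Figure D1:**
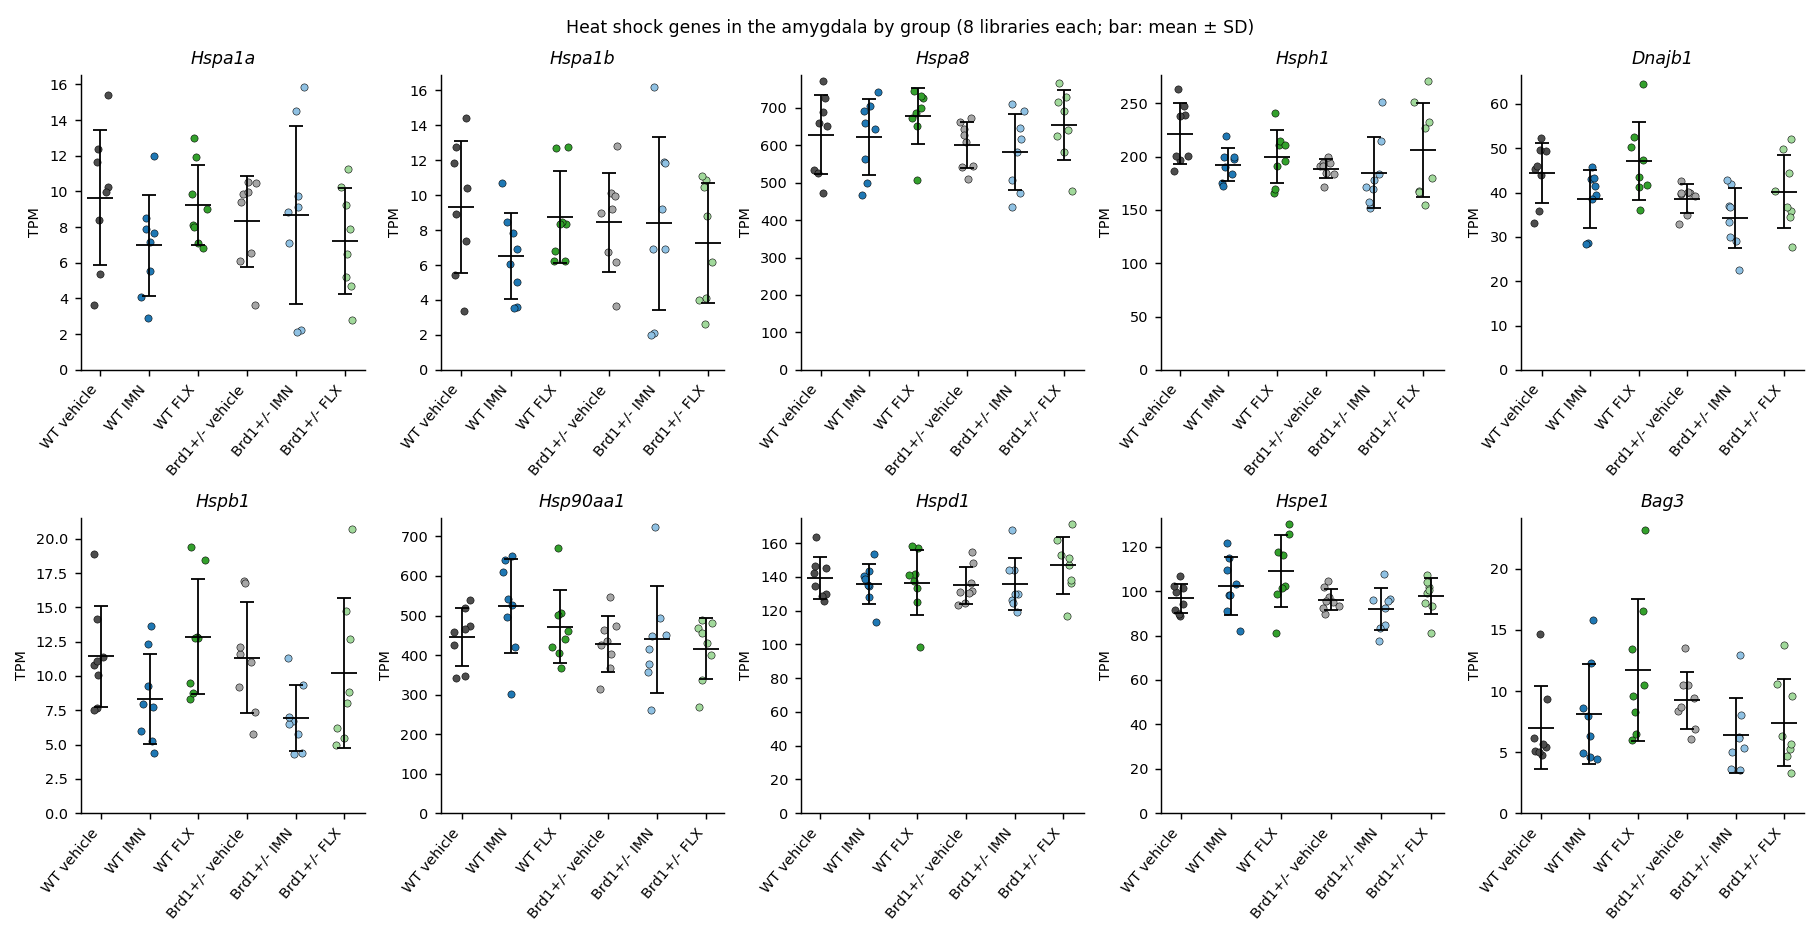
Level of each of the 10 heat shock genes in TPM (y axis, linear and starting at 0) by group (x axis), with 1 point per library, 8 per group, and the bar at the mean ± SD. Hspa8 has the highest median, 649 TPM, and Bag3 the lowest, 6.67 TPM, and in none of the 9 pairs of groups compared do the points of a gene lie wholly apart.

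Several of these values include reads that could belong to near-identical copies. Of all 50-base stretches of the annotated transcripts, 60.3% of those of Hspa1a and 62.3% of those of Hspa1b occurred in another gene, for both mostly the other of the pair. The shares were 48.8% for Hspb1, 47.5% for Hsp90aa1, 39.7% for Hspd1, 38.6% for Hspa8 and 18.4% for Hspe1. Dnajb1 had 0.38%, and Hsph1 and Bag3 had none. The pseudogene Hspd1-ps3 was itself listed at a mean of 50.5 TPM beside 138.3 TPM for Hspd1. The levels of these 7 genes are thus uncertain, those of Dnajb1, Hsph1 and Bag3 less so.

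The libraries differed most in the 4 low genes. The within-group SD on the log2 scale was 0.72 for Hspa1b, 0.69 for Hspa1a, 0.60 for Bag3 and 0.54 for Hspb1, above the median of 0.38 over 19222 genes with a mean of at least 1 TPM. It was 0.31 for Hsp90aa1, 0.26 for Dnajb1, 0.22 for Hspa8, 0.20 for Hsph1, 0.16 for Hspd1 and 0.15 for Hspe1. Hspd1 was at percentile 6.11 and Hspe1 at percentile 5.11 of those genes, and Hspa1a at percentile 76.5. The genes compared were not matched for level, so the part of a low level in a large spread was not tested.

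No member was called in any comparison. Over 13 comparisons and 10 genes, 130 tests by limma gave 0 calls and 13 values of unadjusted p under 0.05, with 0.138 as the lowest adjusted p. In all 90 tests between a pair of groups the ranges of the groups overlapped, and over all genes tested the share whose ranges lay apart was at most 0.505% in any of the 9 pairs. The comparisons share libraries, so their values are not independent of each other. The shares of all genes called, given below, moved with single libraries. The 79 calls between WT FLX and WT vehicle became 1 when replicate 7 of WT FLX was left out and 956 when replicate 1 of WT vehicle was. The 364 calls between Brd1+/- FLX and WT FLX became 70 when replicate 7 of WT FLX was left out. The 172 between the vehicle groups became 80 without replicate 4 of Brd1+/- vehicle and 349 without replicate 1 of WT vehicle. In Brd1+/- mice the 188 calls for IMN became 89 without replicate 4 of the vehicle group, and the 178 for FLX became 88 without its replicate 3. The 455 calls of the FLX interaction became 247 without replicate 2 of Brd1+/- vehicle and 695 without replicate 4 of Brd1+/- FLX, and the 80 for genotype averaged over treatments became 52 without replicate 5 of Brd1+/- vehicle. The number of members called stayed at 0 when any 1 library was left out.

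The first question was whether the Brd1 deletion moved these genes. Between Brd1+/- vehicle and WT vehicle, limma called 0.708% of all genes tested and 0 of the 10 members. At an unadjusted p under 0.05 there was 1 member, against 8.52% of all genes. The member was Hsph1, which had values of 172, 191 and 200 TPM (lowest, median, highest) in Brd1+/- vehicle and of 187, 219 and 263 TPM in WT vehicle. The log2 difference of Hsph1 was -0.22 ± 0.08 (SE, limma, adjusted p = 0.366), and -0.11 with marker scores as covariates. In WT vehicle 4 libraries lay at or above 237.9 TPM, higher than any Brd1+/- vehicle library, and the other 4 lay within or just above the range of that group. Across the members 9 differences were below 0 and 1, Bag3, was above, with a median of -0.05 against 0.03 over all genes.

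Under IMN, limma called 0.017% of all genes between Brd1+/- IMN and WT IMN and 0 of the 10 members, none of which had an unadjusted p under 0.05, against 3.58% of all genes. The member with the largest difference was Bag3, at -0.32 ± 0.30 on the log2 scale (SE, limma, adjusted p = 1.0). The median over the members was -0.12 against 0.01 over all genes. Under FLX, 1.54% of all genes and 0 of the 10 members were called between Brd1+/- FLX and WT FLX, again with none at an unadjusted p under 0.05, against 16.6% of all genes. Bag3 had 3.33, 5.98 and 13.8 TPM in Brd1+/- FLX and 5.95, 10.0 and 23.2 TPM in WT FLX, a difference of -0.66 ± 0.31 on the log2 scale (SE, limma, adjusted p = 0.303). Most of the WT FLX libraries were thus above the middle of the Brd1+/- FLX libraries, but the 2 groups overlapped from 5.95 to 13.8 TPM. The median over the members was -0.21 against -0.06 over all genes.

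Averaged over the 3 treatments, 0.286% of all genes and 0 of the 10 members were called between genotypes, and 2 members and 9.12% of all genes had an unadjusted p under 0.05. Dnajb1 was the nearer to a call. It had 33.03, 45.6 and 52.4 TPM in WT vehicle and 32.8, 39.8 and 42.7 TPM in Brd1+/- vehicle. The values were 28.5, 40.4 and 45.8 TPM in WT IMN and 22.6, 35.1 and 42.9 TPM in Brd1+/- IMN. Under FLX they were 35.9, 45.4 and 64.5 TPM in WT and 27.7, 38.4 and 52.2 TPM in Brd1+/-. In each treatment the Brd1+/- median was below the WT median, and in each the ranges overlapped. The averaged log2 difference was -0.20 ± 0.07 (SE), with an adjusted p = 0.34 in limma. With the scores of striatal, oligodendrocyte and choroid plexus markers as covariates it was -0.18 ± 0.04 and was called (adjusted p = 0.0428), while over all 13 alternative settings the adjusted p ran from 0.0428 to 0.452. Hspe1, the Hsp10 gene, differed by -0.10 ± 0.04 (SE, limma, adjusted p = 0.465). The median over the members was -0.13 against 0.01 over all genes, with 9 of 10 below 0.

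The second question was whether an antidepressant moved the genes within a genotype. Sample codes, which are numbers, were lower in every vehicle library than in every drug library, for both genotypes. A difference between drug and vehicle can therefore not be told apart from a difference between these ranges of sample codes. In WT mice, limma called 0% of all genes between IMN and vehicle and 0 of the 10 members. Hsph1 was the member with an unadjusted p under 0.05, against 4.58% of all genes, at 173, 194 and 220 TPM under IMN and a log2 difference of -0.20 ± 0.08 from vehicle (SE, limma, adjusted p = 0.97). Between WT FLX and WT vehicle 0.335% of all genes and 0 of the 10 members were called, and 1 member and 16.8% of all genes had an unadjusted p under 0.05. The member was Bag3, with 4.75, 5.51 and 14.7 TPM in WT vehicle against the 5.95, 10.0 and 23.2 TPM of WT FLX. The difference was 0.71 ± 0.29 (SE, limma, adjusted p = 0.227) on the log2 scale. In WT vehicle 7 libraries were at or below 9.37 TPM and replicate 1, a library high in choroid plexus markers, was at 14.7 TPM. Oligodendrocyte markers moved the same way, with 7 of 8 at an unadjusted p under 0.05, a median log2 difference of 1.16 and summed medians of 1950 TPM in WT vehicle and 5771 TPM in WT FLX. With the marker scores as covariates the Bag3 difference was 0.33 and the adjusted p 0.897.

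In Brd1+/- mice, 0.776% of all genes and 0 of the 10 members were called between IMN and vehicle, and 2 members and 9.3% of all genes had an unadjusted p under 0.05. Hspb1, a small heat shock protein found in astrocytes and vessels, had 5.76, 11.3 and 16.9 TPM under vehicle and 4.31, 6.61 and 11.3 TPM under IMN. Its log2 difference was -0.69 ± 0.24 (SE, limma, adjusted p = 0.331). Bag3 had 6.05, 9.08 and 13.5 TPM under vehicle and 3.55, 5.74 and 12.9 TPM under IMN, a difference of -0.61 ± 0.24 on the log2 scale (SE, limma, adjusted p = 0.403). Both genes were lower in the middle of the IMN group, with overlap over most of the range. With marker scores as covariates the differences were -0.17 and -0.13. The summed oligodendrocyte markers had a median of 5595 TPM in Brd1+/- vehicle and of 2395 TPM in Brd1+/- IMN, with 8 of 8 at an unadjusted p under 0.05. The part of oligodendrocyte RNA alone in these differences was not tested. Between Brd1+/- FLX and Brd1+/- vehicle 0.731% of all genes and 0 of the 10 members were called, and no member had an unadjusted p under 0.05, against 6.94% of all genes. The members' median difference there was -0.01 against -0.04 over all genes.

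The 2 drugs were also set against each other. In WT mice limma called 0 genes between FLX and IMN (0%) and 0 of the 10 members, though 2 members and 4.78% of all genes had an unadjusted p under 0.05. The members were Hspb1, with 4.35, 7.85 and 13.7 TPM under IMN and 8.35, 12.8 and 19.4 TPM under FLX (log2 difference 0.65 ± 0.24, SE, limma, adjusted p = 0.858), and Dnajb1 (0.29 ± 0.13, SE, limma, adjusted p = 0.858). In Brd1+/- mice limma called 0 genes (0%) and 0 of the 10 members between FLX and IMN, with no member and 2.99% of all genes at an unadjusted p under 0.05.

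Drug effects were then compared between genotypes. A shift between the sample code ranges of drug and vehicle libraries would cancel here if it were equal in both genotypes on the log2 scale. A shift that differed between the genotypes would not cancel, and this was not tested. For IMN, 0.536% of all genes and 0 of the 10 members were called in the interaction. At an unadjusted p under 0.05 were 9.24% of all genes and 1 member, Bag3 (log2 value -0.79 ± 0.39, SE, limma, adjusted p = 0.541). For FLX, 1.71% of all genes and 0 of the 10 members were called. At an unadjusted p under 0.05 were 16.8% of all genes and again Bag3 as the single member, with an interaction of -1.13 ± 0.40 on the log2 scale (SE, limma, adjusted p = 0.138). All 8 oligodendrocyte markers had an unadjusted p under 0.05 in this interaction, with a median of -2.07. The Bag3 difference was 0.71 under FLX in WT mice and -0.42 under FLX in Brd1+/- mice. Without the 4 libraries highest in choroid plexus markers, an alternative added after the data were seen, the Bag3 interaction was -1.47 and was called (adjusted p = 0.0462). With marker scores as covariates it was -0.55 with an adjusted p of 0.628, the other end of the range over 14 alternatives. A test for any difference among the 6 groups called 1.7% of all genes and 0 of the 10 members, with an unadjusted p under 0.05 for 11.5% of all genes and for Dnajb1 (limma, adjusted p = 0.234) and Hspb1 (limma, adjusted p = 0.263). With marker scores as covariates these 2 were called, at adjusted p of 0.00126 and 0.0364, the lowest over 13 alternatives that reached 0.324 and 0.423.

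**Figure D2:**
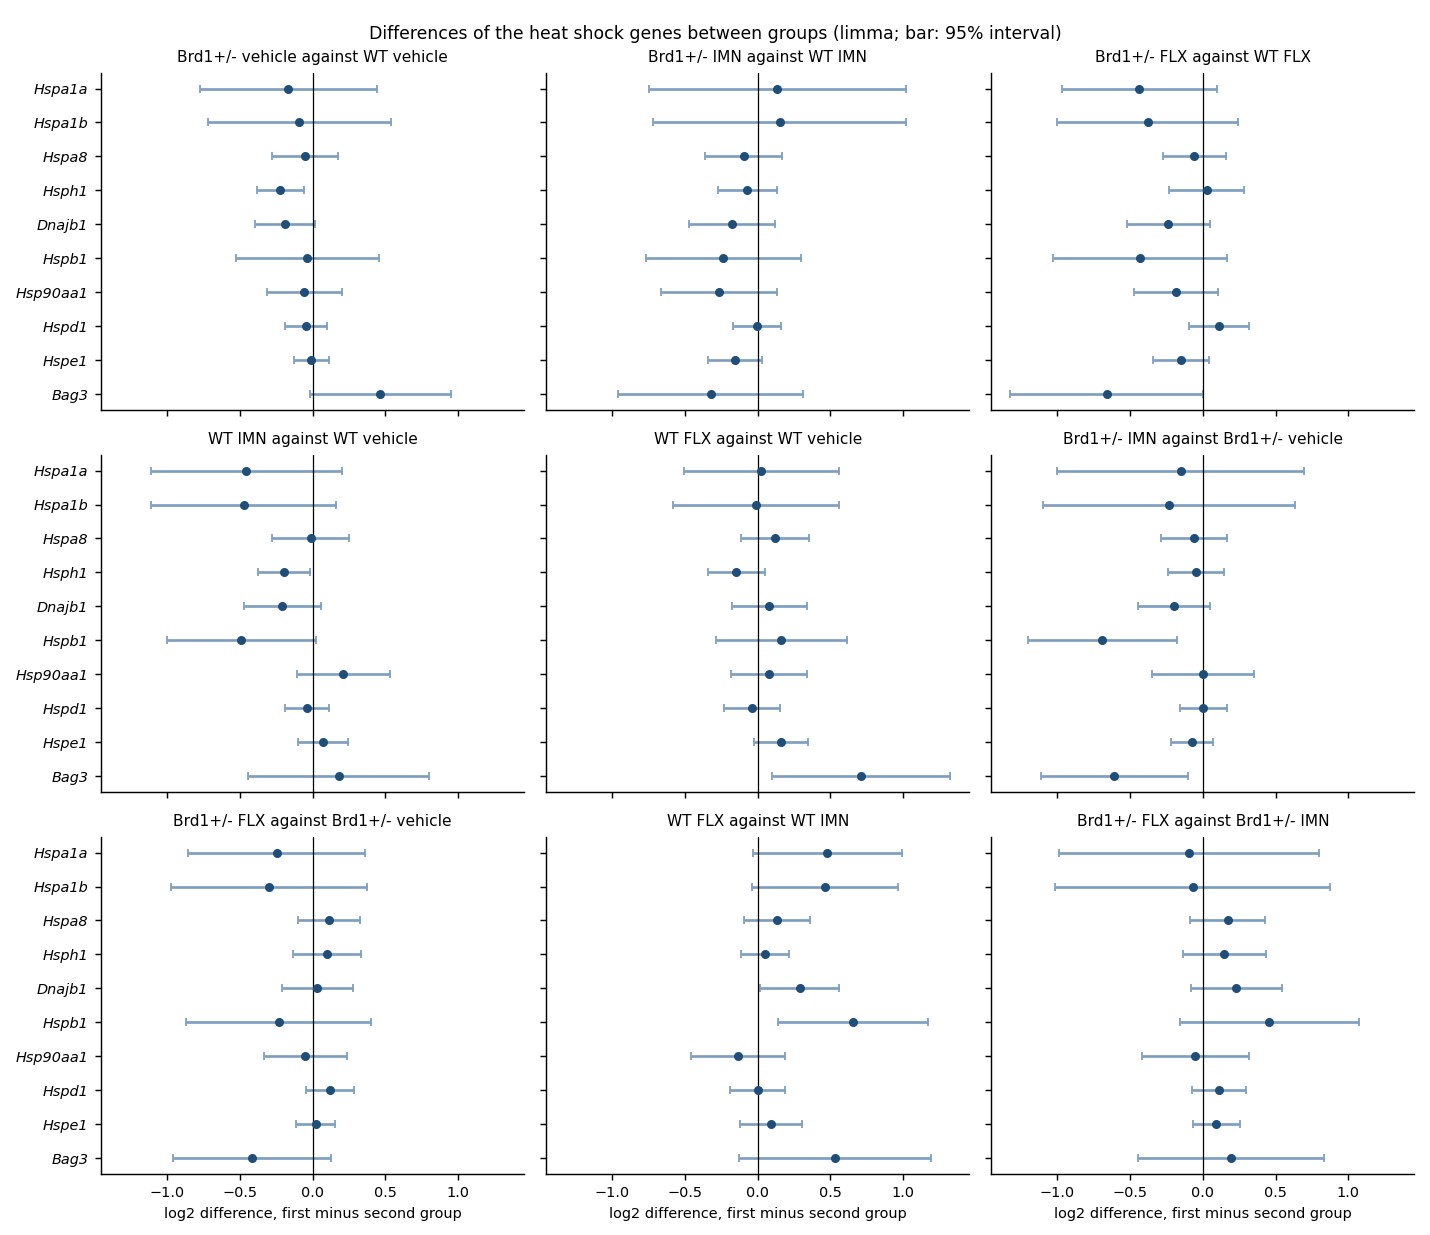
Log2 difference of each heat shock gene between groups (x axis, first minus second group named in each panel) with its 95% interval from limma, for 9 pairs of groups. The intervals of Hspd1 stay between -0.23 and 0.32, while those of Bag3 reach from -1.32 to 1.32.

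How large a difference these data could have hidden varied by gene. Over the 9 pairs of groups the 95% intervals of Hspd1 reached from -0.23 to 0.32 on the log2 scale, the upper end being a 1.25-fold rise. Each is a separate interval from the main setting, so together they are not a joint bound. Those of Hspe1 reached from -0.34 to 0.35, of Hspa8 from -0.36 to 0.43 and of Hsph1 from -0.38 to 0.43. Dnajb1 reached from -0.52 to 0.56 and Hsp90aa1 from -0.67 to 0.53. The low genes were far less constrained. Hspa1a reached from -1.11 to 1.02, with a 2.03-fold rise at the upper end, and Hspa1b from -1.11 to 1.02. Hspb1 reached from -1.20 to 1.17, and Bag3 from -1.32 to 1.32, with a 2.5-fold rise at the upper end. A p above the threshold therefore does not show that Hspa1a or Bag3 were alike in the groups.

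For Hspa1a, the classical stress-inducible Hsp70 gene, the values were 3.65, 10.1 and 15.4 TPM (lowest, median, highest) in WT vehicle, 2.91, 7.43 and 11.99 TPM in WT IMN and 6.82, 8.56 and 13.0 TPM in WT FLX. They were 3.64, 9.65 and 10.6 TPM in Brd1+/- vehicle, 2.13, 8.99 and 15.9 TPM in Brd1+/- IMN and 2.78, 7.21 and 11.3 TPM in Brd1+/- FLX. The highest library was 7.45-fold above the lowest in Brd1+/- IMN, more than the distance between any medians, and no neighbours in the order of the medians differed beyond it. Summed with Hspa1b, to which its reads could be assigned, the family had medians between 13.9 TPM in WT IMN and 19.8 TPM in WT vehicle, and 0 calls as well. The log2 ratio of Hspa1a to Hspa1b lay between -0.38 and 0.36 in all 48 libraries.

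The other genes of the pathway were counted in the same tests. Of 30 further genes of the Hsf1 pathway and of cytosolic chaperones, 8 subunits of the cytosolic chaperonin CCT, 10 mitochondrial chaperones and proteases and 14 chaperones of the endoplasmic reticulum (ER), 0 were called in any of the 13 comparisons by limma. The largest number with an unadjusted p under 0.05 in 1 comparison was 6 of the 30, 2 of the 8, 6 of the 10 and 3 of the 14. The first 3 counts were reached between WT FLX and WT vehicle, where 16.8% of all genes passed that mark, and the last in the test for any difference, where 11.5% did. For the 10 mitochondrial genes the median log2 difference in that first comparison was 0.17, against 0.05 over all genes. The list medians stayed between -0.16 and 0.22 on the log2 scale in all comparisons. Hsf1 itself had a median of 45.4 TPM and lay between 36.0 and 58.4 TPM. The constitutive Hsp90 gene Hsp90ab1, at a median of 1133 TPM, was above its inducible partner Hsp90aa1. The Hsp90 co-chaperone gene Chordc1 lay between 37.9 and 90.03 TPM with a median of 64.5 TPM, and Hspa5, the Hsp70 of the ER, between 100.1 and 559.8 TPM with a median of 219.7 TPM. Cryab, a small heat shock protein of glia, had 48.4, 84.1 and 224 TPM in WT vehicle and 102, 171 and 405 TPM in Brd1+/- vehicle, which differed by 0.99 ± 0.32 on the log2 scale (SE, limma, adjusted p = 0.326). All 8 oligodendrocyte markers had an unadjusted p under 0.05 in the same comparison, with a median log2 difference of 1.51 and summed medians of 1950 and 5595 TPM.

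Genes of the cold response were read beside them because the mice had swum. Cirbp and Rbm3 encode RNA-binding proteins that rise when cells cool. Cirbp lay between 46.9 and 164 TPM with a median of 94.5 TPM, and Rbm3 between 53.1 and 108 TPM with a median of 74.3 TPM. Neither was called in any comparison. Rbm3 had 61.8, 64.4 and 75.5 TPM in WT IMN and 55.4, 83.3 and 93.5 TPM in WT vehicle, a difference of -0.26 ± 0.09 on the log2 scale (SE, limma, adjusted p = 0.97). In contrast 12 immediate-early genes, which mark recent neuronal activity, gave calls. Egr1 and Npas4 were lower in WT FLX than in WT vehicle, where 0.335% of all genes were called. Egr2, Egr4, Npas4 and Nr4a1 were called in the FLX interaction, each with a value above 0, beside 1.71% of all genes. Npas4 was also called in the test for any difference, beside 1.7% of all genes. With marker scores as covariates all 7 calls were lost, at adjusted p between 0.0571 and 0.677 in limma. With the replicate number as a block Egr1 and Npas4 were not called between WT FLX and WT vehicle (adjusted p of 0.0822 and 0.122), nor was Egr2 in the interaction (0.0601).

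Between libraries the members fell into 2 blocks, described after the values were seen. After group means were subtracted, 23 of 45 pairs had an adjusted permutation p under 0.05 over 48 libraries (100000 permutations within groups, adjusted over the 45 pairs). All 23 were positive. From unscaled TPM of all 48 libraries, the first block joined the Hsp70 and Hsp90 genes with the mitochondrial pair. Of the 23 pairs, 11 held Hspd1 or Hspe1, among them Dnajb1 with Hspe1 (r = 0.59) and with Hspd1 (0.54), Hspa8 with Hspe1 (0.58) and Hsp90aa1 with Hspe1 (0.57). After median-ratio scaling 1 of these 11 was past the threshold, and without the 7 libraries high in striatal markers 1 was. In both settings it was Hsph1 with Hspd1. No pair of Hspd1 or Hspe1 with Dnajb1, Hspa8, Hsp90aa1, Hspa1a or Hspa1b was past it in either. Hspa1a and Hspa1b, which share most of their sequence, had r = 0.97 (rho = 0.97). Dnajb1 and Hsp90aa1 had r = 0.80, rho = 0.67, a permutation p of 1e-05, the smallest the permutations can give, and an adjusted p of 5.62e-05. The r was 0.74 without the 2 libraries farthest from the median of Dnajb1, and it lay between 0.59 and 0.89 within each of the 6 groups.
Dnajb1 was also related to Hspa1a (r = 0.76, rho = 0.71, 0.76 without 2 libraries, permutation p = 1e-05, adjusted p = 5.62e-05, 0.43 to 0.97 within groups). To Hspa8 it had r = 0.75 (rho = 0.69, 0.70 without 2 libraries, permutation p = 1e-05, adjusted p = 5.62e-05, 0.49 to 0.94 within groups). In unscaled TPM, Dnajb1, Hspa8 and Hsp90aa1 thus tended to run high and low in the same libraries. Hspa8 with Hsp90aa1 had r = 0.67 but was not past the threshold under every alternative given below.

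The second block held Hspb1 and Bag3, Bag3 being a partner of small heat shock proteins. They had r = 0.64 (rho = 0.56, 0.65 without 2 libraries, permutation p = 1e-05, adjusted p = 5.62e-05), and r was above 0 in 5 of the 6 groups and -0.04 in the other. It was highest in Brd1+/- FLX (0.97) and WT vehicle (0.87), where both genes peaked in a library high in choroid plexus markers. Neither was related to Hspd1 or Hspe1 beyond the threshold, and the link between the blocks past it was Hspb1 with Hspa1b (r = 0.35, rho = 0.31, permutation adjusted p = 0.0427). Hsph1 was tied to the first block through Hspd1, its only pair past the threshold (r = 0.58, rho = 0.57, 0.55 without 2 libraries, permutation adjusted p = 0.000286, above 0 in 6 of 6 groups). With Dnajb1 its permutation adjusted p was 0.0532.

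These relations depended on how the libraries were scaled and which were kept. After median-ratio scaling of the TPM columns 8 of the 23 pairs were past the threshold, and without the 7 libraries high in striatal markers 7 were. After the marker scores were regressed out 9 pairs were past it, 7 of them among the 23. Past the threshold under every one of 7 alternatives were 4 pairs, Hspa1a with Hspa1b, Dnajb1 with Hsp90aa1, Dnajb1 with Hspa8, and Hsph1 with Hspd1. For Dnajb1 and Hsp90aa1 r was 0.69 after median-ratio scaling, 0.63 without the 7 libraries and 0.65 with the scores regressed out. For Dnajb1 and Hspa1a it was 0.58, 0.56 and 0.26. For Hspb1 and Bag3 it was 0.63, 0.72 and 0.31.

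**Figure D3:**
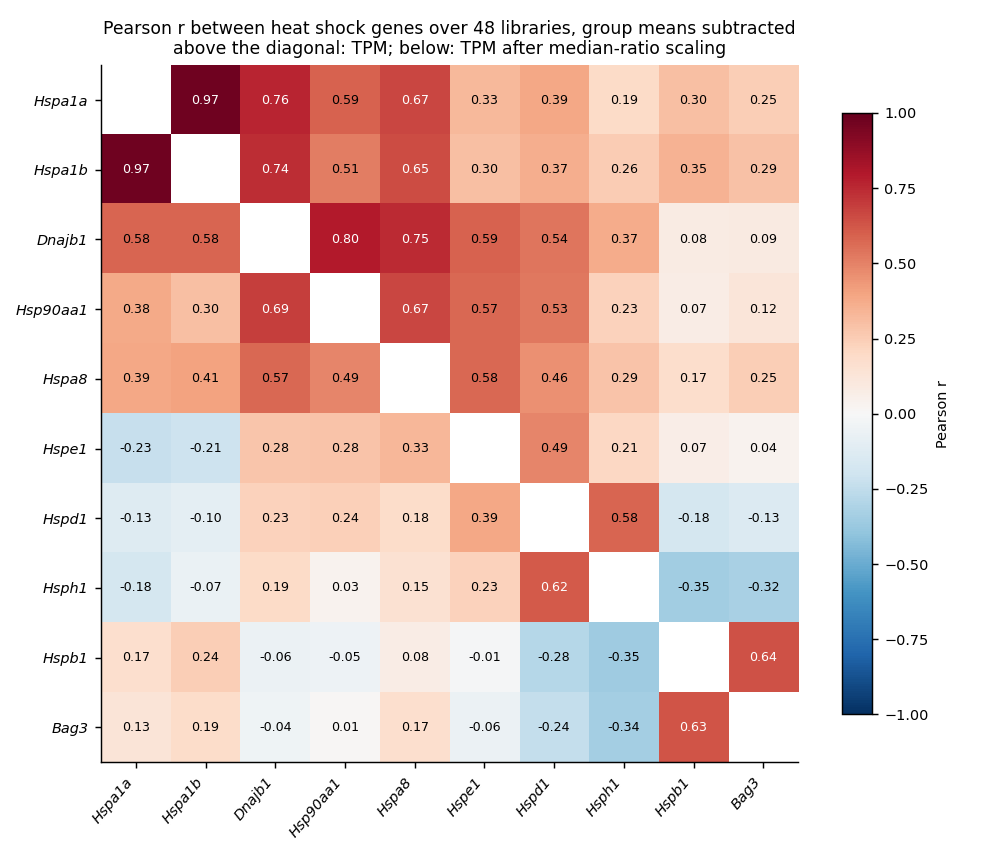
Pearson r between each pair of heat shock genes over 48 libraries after subtracting group means, from TPM above the diagonal and after median-ratio scaling below it. Dnajb1 and Hsp90aa1 have 0.80 above and 0.69 below, and Hspb1 and Bag3 form a separate pair with 0.64 and 0.63.

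The first block ran against the striatal markers. Over 48 libraries the mean log2 level of 7 striatal projection neuron markers had r = -0.84 with Dnajb1 (rho = -0.79, -0.81 without 2 libraries), and r lay between -0.93 and -0.70 within the 6 groups. With Hspa1a it was -0.82 (rho = -0.77, -0.79 without 2 libraries, -0.94 to -0.65 within groups). Both had a permutation p of 1e-05 and an adjusted p of 6.22e-05 over 230 relations of members with other genes and scores. The values were -0.79 for Hspa1b, -0.70 for Hspa8, -0.65 for Hsp90aa1, -0.49 for Hspe1 and -0.39 for Hspd1, all past the threshold, and -0.19 for Hsph1, -0.17 for Bag3 and -0.15 for Hspb1, which were not.
Many genes shared this direction, with a median r of -0.24 over 19222 genes, of which 0.655% were as low as Dnajb1, 1.29% as low as Hspa1a and 34.7% as low as Hspd1. After median-ratio scaling r was -0.69 for Dnajb1, -0.80 for Hspa1a, -0.44 for Hspa8 and -0.48 for Hsp90aa1, but 0.11 for Hspd1, 0.04 for Hspe1 and 0.20 for Hsph1, so the direction of these 3 flipped with the scaling.

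In the 7 libraries highest in striatal markers Hspa1a lay between 2.13 and 4.07 TPM with a median of 2.91 TPM. In the other 41 it lay between 4.67 and 15.9 TPM with a median of 9.13 TPM. The 7 thus held the 7 lowest Hspa1a values of all 48, and the same was true of Hspa1b, with 3.67 TPM as the highest of the 7 and 4.01 TPM as the lowest of the 41. Dnajb1 lay between 22.6 and 33.03 TPM in the 7 and between 29.1 and 64.5 TPM in the 41, with 1 of the 41 below the highest of the 7.
Hspa8 had medians of 476 TPM in the 7 and 659 TPM in the 41, and Hsp90aa1 of 341 and 464 TPM. Hsph1 hardly moved, with medians of 191 and 194 TPM. The relation was also present among the 41 libraries alone, at r = -0.72 for Dnajb1 (permutation p = 1e-05), -0.60 for Hspa1a (permutation p = 0.00016) and -0.44 for Hspa8 (permutation p = 0.00804). Whether the makeup of the punch accounts for these values was not tested.

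**Figure D4:**
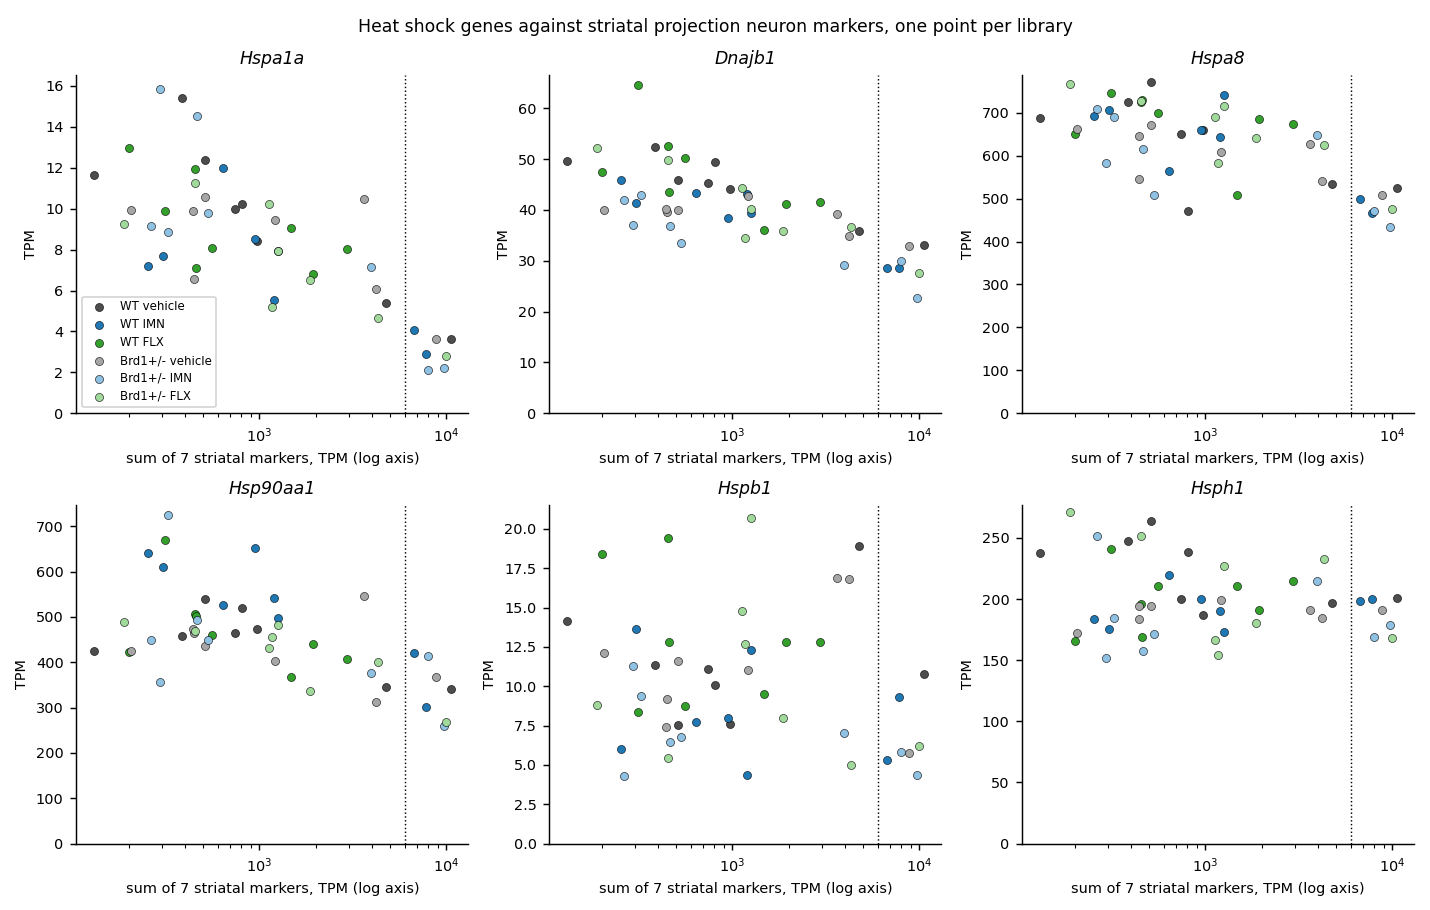
Level of 6 heat shock genes in TPM (y axis, linear from 0) against the summed level of 7 striatal projection neuron markers in TPM (x axis, log scale), 1 point per library coloured by group, with a dotted line at 6000 TPM. Hspa1a is at or below 4.07 TPM in the 7 libraries right of the line and at or above 4.67 TPM in the 41 left of it, while Hsph1 has medians of 191 and 194 TPM.

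The second block ran with markers of glia and vessels. Bag3 had r = 0.70 with astrocyte markers, 0.68 with oligodendrocyte markers, 0.66 with mural and fibroblast markers and 0.56 with endothelium markers. For Hspb1 these were 0.58, 0.59, 0.64 and 0.68. All 8 were past the threshold with a permutation adjusted p of at most 0.000711, and the lowest of the within-group values for the astrocyte, oligodendrocyte and endothelium markers was 0.09. The small heat shock protein genes followed the same way. Hspb8, whose protein forms a complex with Bag3, had r = 0.84 with Bag3 (rho = 0.85, 0.81 without 2 libraries, 0.44 to 0.95 within groups, permutation adjusted p = 6.22e-05) and 0.74 with Hspb1. Cryab had 0.74 with Bag3 and 0.69 with Hspb1.
After median-ratio scaling Bag3 kept 0.69 with astrocyte and 0.67 with oligodendrocyte markers, and without the 7 libraries it had 0.74 and 0.69. Hsph1 ran the other way, at -0.65 with oligodendrocyte and -0.64 with endothelium markers (permutation adjusted p = 6.22e-05 each, below 0 in 6 of 6 groups). The 2 co-chaperones of Hsp70, Bag3 and Hsph1, were thus opposed in their relation to glial markers, with -0.64 for Hsph1 and 0.67 for Bag3 with oligodendrocyte markers after median-ratio scaling. The top Hspb1 values were 20.7, 19.4 and 18.9 TPM. They came from Brd1+/- FLX replicate 8, WT FLX replicate 2 and WT vehicle replicate 1, all high in choroid plexus markers. The other such library, Brd1+/- vehicle replicate 3, had 11.6 TPM. Mural and fibroblast markers had the highest sum of their group in Brd1+/- FLX replicate 8 (638 TPM) and WT vehicle replicate 1 (606 TPM). Correlations without the libraries high in choroid plexus markers were not run.

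In unscaled TPM, the mean levels of CCT genes and of 30 further genes of the Hsf1 pathway and of cytosolic chaperones followed the first block. The 30 include Hspb8 and Cryab, which ran with the second block, so their mean does not speak for each gene. The mean log2 level of 8 CCT genes had r = 0.84 with Dnajb1 (rho = 0.79, 0.79 without 2 libraries, 0.67 to 0.93 within groups), 0.80 with Hspa1a, 0.78 with Hsp90aa1 and 0.71 with Hspd1, against 0.01 with Bag3 and 0.00 with Hspb1. With Dnajb1 it was 0.70 after median-ratio scaling and 0.67 without the 7 libraries. In the same settings it was 0.51 and 0.49 with Hspa1a, 0.66 and 0.60 with Hsp90aa1, and 0.54 and 0.72 with Hspd1. With Bag3 it was -0.25 and -0.29 there, and with Hspb1 -0.26 and -0.36. The mean of the 30 further genes had 0.86 with Hspa1a and 0.81 with Dnajb1. Hsf1 alone had 0.68 and 0.58, and each of these values had a permutation adjusted p of at most 0.000329. After median-ratio scaling Hsf1 had 0.32 with Hspa1a and 0.21 with Dnajb1, neither past the threshold (permutation adjusted p of 0.0933 and 0.36). The mean of the 30 genes was not run after that scaling.

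The cold-response genes had positive relations with Hspa1a over all 48 libraries. Cirbp had r = 0.66 with Hspa1a (rho = 0.52, 0.59 without 2 libraries, permutation adjusted p = 0.00016, -0.09 to 0.80 within groups) and 0.51 with Dnajb1 (rho = 0.39, permutation adjusted p = 0.0024). Rbm3 had 0.52 with Hspa1a (rho = 0.36, permutation adjusted p = 0.0024) and 0.40 with Dnajb1. Without the libraries high in striatal markers these relations were weaker. Among the other 41, Cirbp had 0.17 with Hspa1a (permutation p = 0.326) and 0.04 with Dnajb1 (permutation p = 0.8), and Rbm3 had 0.12 and -0.03. After median-ratio scaling of all 48 libraries Cirbp had 0.52 with Hspa1a (permutation adjusted p = 0.0052) and 0.19 with Dnajb1 (permutation adjusted p = 0.371), and Rbm3 had 0.13 with Hspa1a. Cirbp had a median of 60.3 TPM in the 7 libraries and of 98.2 TPM in the 41.

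Fos, an immediate-early gene, had r = 0.75 with Hspa1a and 0.75 with Dnajb1 over 48 libraries (permutation adjusted p = 6.22e-05 each). The rho values were 0.48 and 0.69, r without 2 libraries 0.70 and 0.68, and all 6 groups were above 0 for both. Fos lay between 2.74 and 13.1 TPM in the 7 libraries and between 16.1 and 58.1 TPM in the 41, without overlap. Among the 41, Fos had 0.21 with Hspa1a (permutation p = 0.232), 0.54 with Dnajb1 (permutation p = 0.00184) and 0.53 with Hsph1 (permutation p = 0.00102). With Hspb1 and Bag3 it had -0.62 and -0.57 there (permutation p of 0.00012 and 0.00045), while over all 48 libraries the values were 0.10 and -0.03.

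**Figure D5:**
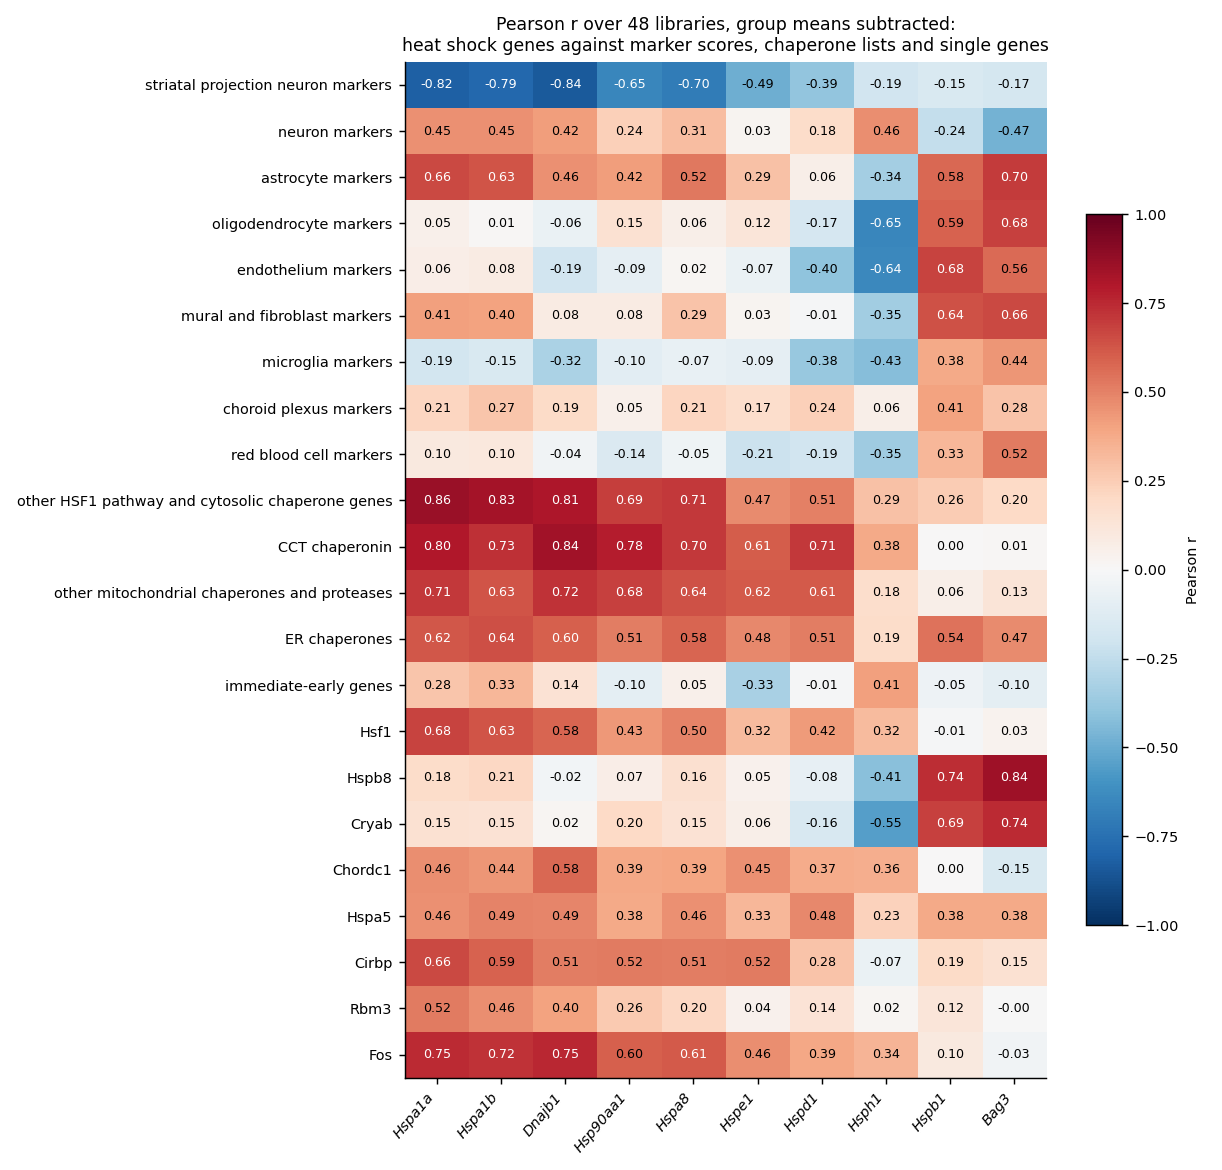
Pearson r over 48 libraries, after subtracting group means, between each heat shock gene (columns) and marker scores, chaperone lists or single genes (rows), each score being the mean log2 level of its list. Dnajb1 and Hspa1a are at -0.84 and -0.82 with the striatal markers, and Bag3 and Hspb1 are at 0.68 and 0.59 with the oligodendrocyte markers.

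The single genes most like each member were looked up among 13823 protein-coding genes with a mean of at least 1 TPM, as a description over 48 libraries with group means subtracted. For Hspa1a they were Arl2bp (r = 0.88), Pip5k1b (0.88) and Wdr1 (0.88), and for Hspa1b Pea15a (0.85), Shisal1 (0.85) and Pip5k1b (0.84). For Dnajb1 they were Spry4 (0.86), Ppm1f (0.85) and Kcnk10 (0.84), and for Hsp90aa1 Tfg (0.83), Ptdss1 (0.82) and Kif21a (0.82). A chaperone or co-chaperone gene was first or second for Hspa8, Hspd1, Hspe1 and Bag3. For Hspa8 the most alike was Stip1 (0.77), which joins Hsp70 to Hsp90, followed by Nhsl1 (0.76) and Gm7361 (0.76). For Hspd1 it was Uso1 (0.79), then the CCT subunit gene Cct7 (0.73) and Ncl (0.71).
Hspe1 had Ankrd34b (0.80), the DnaJ gene Dnajc12 (0.79) and St8sia4 (0.77). Hsph1 had the lowest likeness to any gene, with Tbck (0.68), Abce1 (0.66) and Kif3b (0.65). Hspb1 had Ss18 (0.80), Ak3 (0.76) and Nfe2l2 (0.76), a regulator of the oxidative stress response. Bag3 had Hspb8 (0.84), Olfml1 (0.82) and Gm2a (0.82).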

How the data were processed

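The submitters' notes name FastQC, Trimmomatic, HISAT2 2.1.0 and StringTie 1.3.4 on GRCm38, and the authors deposited TPM per gene and library, 1 column each for 48 libraries. The number of reads per library cannot be recovered from TPM. Whether counting used strand is not given in the sources used here. The series' design text names other brain regions, and the sample labels, which say amygdala, were followed. Groups, doses and replicate numbers came from the labels. The members and gene lists were chosen with earlier results of these data known.

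The study's own test was a model of read counts. Since TPM is no count, limma 3.58.1 (R 4.3.3) was used on log2(TPM + 0.1) with a trended eBayes prior, for genes at 0.1 TPM or more in at least 8 libraries of the fit, without covariates. A score is the mean log2(TPM + 0.1) of a list. Correlations over libraries used 100000 permutations within groups, 2-sided. Pairs of groups were fitted on their own 16 libraries, interactions on 4 groups, and the last 2 comparisons on all 48. The code was tested on simulated data. Alternatives were pseudocounts of 0.01 and 1, no filter or TPM of at least 1, median-ratio scaling, quantile normalization, no trend, 1 fit of all libraries, a replicate block, a term for the range of sample codes, marker scores as covariates, summing Hspa1a and Hspa1b, and leaving out each library. The term for sample codes split the vehicle codes at 130 and the drug codes at 402, so it could not separate drug from vehicle. Leaving out the 7 libraries above 6000 TPM in striatal markers or the 4 above 5000 TPM in choroid plexus markers was added after the data were seen. Symbols and coordinates (1-based) came from GENCODE M21, with 52489 of 52636 identifiers matched, and promoters from RefSeq.

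The genes named were the 10 members, Brd1, the 3 genes most like each member, called genes of the lists, and Cryab, Hspb8, Chordc1, Hsp90ab1, Hsf1, Hspa5, Cirbp, Rbm3 and Fos. Among cell type markers not described elsewhere, Tubb3 (neuron) was called between Brd1+/- FLX and WT FLX and Gjb6 (astrocyte) between WT FLX and WT vehicle, and none of the amygdala, oligodendrocyte, microglia, endothelium, mural, choroid plexus, striatal or red blood cell markers was called by limma.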

Additional observations from a re-analysis of the deposited data

Results flagged for a closer look

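In groups of 8, a library was looked up whose gap to its nearest neighbour took up an unusually large share of the group's range (above Dixon's 95% critical value of 0.526). Over 60 combinations of member and group 3 such values were found, and chance gives about 1 in 20. Hspa8 was at 508 TPM in WT FLX replicate 8, with 651 TPM as the next lowest value. Hsp90aa1 was at 670 TPM in WT FLX replicate 1, with 506 TPM as the next highest. Bag3 was at 14.7 TPM in WT vehicle replicate 1, one of the libraries high in choroid plexus markers, with 9.37 TPM as the next highest.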

How the results depend on the processing

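Of the 13 counts of members called, 10 were 0 under every alternative, leaving out each library included (lowest and highest value 0). With marker scores as covariates the count was 1 for genotype averaged over treatments (Dnajb1) and 2 for any difference among the 6 groups (Dnajb1 and Hspb1), and without the 4 libraries highest in choroid plexus markers it was 1 for the FLX interaction (Bag3). The cause was not tested. Pairs of members past the threshold numbered 23 as reported, 8 after median-ratio scaling, 9 with marker scores regressed out and 7 without the 7 libraries highest in striatal markers, and 20 to 26 under the other 4 settings. Differences of single members changed sign in 20 of 120 cases with marker scores as covariates, in 12 without the 7 libraries, in 7 with quantile normalization, in 6 without the 4 libraries and in 5 after median-ratio scaling. Past the threshold by limma came 2 of them, the 2 named above for genotype and the FLX interaction, and 2 moved by more than the within-group SD, the Bag3 IMN interaction to -0.15 and the Hsph1 FLX interaction to 0.01, both with marker scores. With the replicate number as a block the count of members called was 0 in every comparison. The numbers did not pair the samples, since 1 to 5 of 8 same-numbered pairs per comparison had a correlation of deviations over 0.1. Depth could not limit any statement by a stated amount, because TPM holds none.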
